A study of Mus musculus with 7 samples.

Results

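Epcam, Cdh1, Krt8, Krt18, Krt19, Krt20 and Vil1 are 7 genes by which an intestinal epithelial cell is recognised, and they were followed across diets in sorted mouse crypt cells. They were taken by symbol from the 37310 genes of the deposited table, and all 7 were among the 14626 genes that passed the filter on low counts. The set was selected on a measured value, the level of Epcam in NWD2 replicate 2, which earlier work on these data had noted as the lowest. Epcam in NWD2 is therefore given as a description without a test, and the other 6 genes were listed beside it. RNA was sequenced from 7 libraries, 2 from mice fed NWD2, 3 from mice fed NWD1 and 2 from mice fed AIN76A. AIN76A served as the purified control diet. NWD1 models Western eating, being rich in fat and poor in calcium, in vitamin D3 and in methyl donors. NWD2 has the make-up of NWD1 except that its calcium and vitamin D3 are higher. Every mouse carried BmicreERT2, a Cre recombinase made inducible by its fusion to an oestrogen receptor domain and driven from Bmi1, together with Rosa26RFP, a red reporter that stays on in a recombined cell and its descendants. The mice received their diet from weaning until an age of 3 months, and all were labelled male except NWD1 replicate 2, which was labelled female. Crypts were dispersed, and cells with strong red fluorescence that were Epcam+ and CD45- were collected in bulk. The time of induction is not given in the sources used here, and the red label alone does not separate Bmi1-expressing cells from their progeny.

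Simple epithelia are held together by adhesion proteins at the lateral membrane and are stiffened by keratin filaments. Epcam is a homophilic adhesion protein of the basolateral membrane that also stabilises claudins, and Cdh1 encodes E-cadherin, the calcium-dependent protein of the adherens junction. Keratin filaments are obligate pairs of a type II and a type I chain. In the intestine the main type II chain is Krt8, and Krt18, Krt19 and Krt20 are the type I chains that pair with it. Krt19 is made in crypt and villus, Krt20 increases as cells differentiate, and Krt18 is also abundant in tuft cells. Villin, the product of Vil1, bundles actin in the microvilli of the brush border.

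The libraries held between 14034315 counts, in NWD1 replicate 3, and 77959407 counts, in NWD2 replicate 2. Mitochondrial genes took 1.44% to 2.33% of counts and between 16782 and 19871 genes had a count. Bmi1 itself had 3.63 and 2.56 CPM (counts scaled to the size of the library) in NWD2, 3.91, 2.12 and 5.25 in NWD1, and 2.41 and 3.72 in AIN76A. Ptprc, which encodes CD45, was between 1.17 and 5.75 CPM in the 7 libraries, and the 19 leukocyte genes listed summed to 22.7 and 24.1 CPM in NWD2, 14.9 to 36.1 CPM in NWD1, against 16.1 and 16.5 CPM in AIN76A. Of the 15 tested, 14 were higher in NWD1 than in AIN76A (median log2 fold change 1.63), and 14 in NWD2 than in AIN76A (median 1.82). Ptprc itself was lower in NWD2 than in AIN76A (log2 fold change -1.30). None of the 15 passed the adjusted test described below. The endothelial gene Cdh5 had no count in any library, and Col1a1, the collagen of connective tissue, had at most 4. Other genes of these kinds were detected. Pecam1, also endothelial, had up to 23 counts and the stromal gene Tagln up to 3.38 CPM, both in NWD2 replicate 2. The endothelial and glial genes listed summed to at most 3.27 CPM in a library, and the stromal genes to at most 5.94 CPM. Whether the libraries stem from separate animals is not stated in the labels, so the p-values below measure the spread between these samples, which may be technical. NWD1 replicate 3 and both NWD2 libraries carried a different i5 sequencing index from the remaining 4 libraries, so no index holds both NWD2 and AIN76A. A fit with the index as a term links these diets through NWD1, and its estimate of the index effect rests on NWD1 replicate 3. In that fit 13 of the 15 leukocyte genes were higher in NWD1 than in AIN76A (median 0.91), and 7 in NWD2 than in AIN76A (median -0.11). A second deposited table heads a column as an NWD2 replicate 3 that no sample title matches and has none for NWD1 replicate 3, which makes the diet of that library less certain.

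The start regions of Epcam, Krt18, Krt20 and Vil1 are printed because Krt20 and Vil1 had nearly the same pattern over the 7 libraries, while Epcam and Krt18 departed from it. Each runs 5′ to 3′ on the gene's own strand from 250 bases before to 50 bases after the annotated start, as RefSeq gives it on GRCm38.p6. Of the 7 genes, 5 matched the RefSeq promoter table. The 4 shown lie at chr17:87635729-87636028 on the plus strand (Epcam), chr15:102027966-102028265 on the plus strand (Krt18), chr11:99438104-99438403 on the minus strand (Krt20) and chr1:74409134-74409433 on the plus strand (Vil1). Capitals mark matches on either strand to any of 6 motifs, namely the TATA box TATAAA, the CCAAT box CCAAT, the GC box GGGCGG, the Cdx motif TTTATNG, the Hnf4 motif CAAAGTCCA and the Gata motif AGATAA.
Epcam: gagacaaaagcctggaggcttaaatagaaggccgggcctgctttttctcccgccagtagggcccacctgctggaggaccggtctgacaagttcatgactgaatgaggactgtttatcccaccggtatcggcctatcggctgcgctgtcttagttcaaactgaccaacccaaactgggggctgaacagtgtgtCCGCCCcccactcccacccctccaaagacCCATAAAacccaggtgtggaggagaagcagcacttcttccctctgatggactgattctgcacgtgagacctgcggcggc
Krt18: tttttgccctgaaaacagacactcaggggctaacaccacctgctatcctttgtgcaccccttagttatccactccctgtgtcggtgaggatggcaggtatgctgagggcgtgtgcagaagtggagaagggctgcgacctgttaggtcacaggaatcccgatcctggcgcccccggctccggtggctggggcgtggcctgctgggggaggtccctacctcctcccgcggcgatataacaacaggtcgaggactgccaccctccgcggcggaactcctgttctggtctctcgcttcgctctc
Krt20: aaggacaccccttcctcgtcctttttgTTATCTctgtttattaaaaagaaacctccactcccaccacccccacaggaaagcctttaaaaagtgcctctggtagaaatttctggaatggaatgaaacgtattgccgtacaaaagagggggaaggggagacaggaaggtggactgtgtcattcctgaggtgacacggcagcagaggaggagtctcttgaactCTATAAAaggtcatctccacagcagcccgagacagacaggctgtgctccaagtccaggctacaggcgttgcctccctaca
Vil1: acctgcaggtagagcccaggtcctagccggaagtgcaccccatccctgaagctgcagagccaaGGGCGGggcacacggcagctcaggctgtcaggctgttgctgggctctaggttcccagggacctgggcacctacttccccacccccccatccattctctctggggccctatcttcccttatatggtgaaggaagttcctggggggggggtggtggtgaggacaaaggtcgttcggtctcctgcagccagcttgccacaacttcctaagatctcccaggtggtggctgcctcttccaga

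In the Epcam window the capitals are a GC box on the minus strand and, nearer the start, a Cdx match on the minus strand. In the Krt20 window they are a Gata match on the minus strand and a TATA box that shares its bases with a Cdx match on the opposite strand. The Vil1 window held a GC box on the plus strand and no other of the 6, and the Krt18 window held none of them. Of 32841 mouse promoter windows of the same length, 13.6% held the TATA box, 37.4% the CCAAT box, 35.7% the GC box, 10.9% the Cdx motif, 0.475% the Hnf4 motif and 11.2% the Gata motif. The pair with like patterns, Krt20 and Vil1, shared none of the 6 motifs in these windows. A match describes letters in the window, and its absence says nothing of the factor.

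Epcam, the adhesion protein used in the sort, had 838 and 225 CPM in NWD2, 1338, 1182 and 1103 CPM in NWD1, against 510.0 and 986 CPM in AIN76A. The 3 NWD1 libraries were the highest and close together, and the libraries of the other diets were lower and far apart. In TPM, the scale that also corrects for transcript length, Epcam had 782 and 180 TPM in NWD2, against 1313, 1197 and 1192 TPM in NWD1 and 399 and 970 TPM in AIN76A. Ranked by TPM it was gene 764 in NWD2 replicate 2 and between gene 106 and gene 352 in the other 6 libraries. Transcripts of the gene that encodes the sorting antigen were thus plentiful in each library, with 14009 counts in the lowest.

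Both NWD2 libraries were below all 3 NWD1 libraries for Epcam, and by very different amounts. The log2 fold change of NWD2 against NWD1 was -1.18 ± 0.51 (SE of the fit). It was -0.52 without NWD2 replicate 2 and -2.46 without NWD2 replicate 1. Against AIN76A, whose libraries the NWD2 values overlap, it was -0.49 ± 0.56. That value was -1.77 without NWD2 replicate 1, -0.89 without AIN76A replicate 1, 0.17 without NWD2 replicate 2 and 0.07 without AIN76A replicate 2, so its sign depended on single libraries. Within the second i5 index the values were 838 and 225 CPM in NWD2 against 1103 CPM in NWD1 replicate 3. Since NWD2 replicate 2 chose the gene, these are descriptions. Over all genes tested, both NWD2 libraries were below all of NWD1 for 14.5% and above them for 10.8%.

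Epcam in NWD1 against AIN76A does not compare the library that chose it, although that library adds to the estimate of the spread. All 3 NWD1 libraries were above both AIN76A libraries, which was so for 11.4% of the genes tested, and all were below for 8.61%. The means were 1207 ± 120 CPM in NWD1, against 748 ± 337 CPM in AIN76A (SD, n = 3 and 2), and the log2 fold change was 0.69 ± 0.51 (SE), with a 95% interval of -0.45 to 1.83. By edgeR's quasi-likelihood test the adjusted p, by Benjamini and Hochberg over all genes tested, was 0.878. The fold change was 0.29 without AIN76A replicate 1 and 1.24 without AIN76A replicate 2, so its size rests on which control library is used. Within the first i5 index, where both diets have 2 libraries, NWD1 had 1338 and 1182 CPM against 510.0 and 986 CPM in AIN76A. In bulk RNA, fewer cells of a type and less of a transcript per cell cannot be told apart, here and in all that follows.

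Of the 7 genes, none of those tested passed an adjusted p of 0.05 in any comparison, and Epcam was not tested with NWD2. No other gene passed either, a share of 0% of genes tested in each comparison. At an unadjusted p under 0.05, edgeR counted 500 genes for NWD1 against AIN76A, 560 for NWD2 against AIN76A and 1154 for NWD2 against NWD1, of 14626. The DESeq2 Wald test called 1, 51 and 192 genes in the same comparisons and none of the members tested. For 1 gene, the smallest p that an exact permutation test allows is 0.333 with 2 against 2 libraries and 0.1 with 3 against 2, so none was run. The 3 comparisons share libraries and are not independent of each other.

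**Figure D1:**
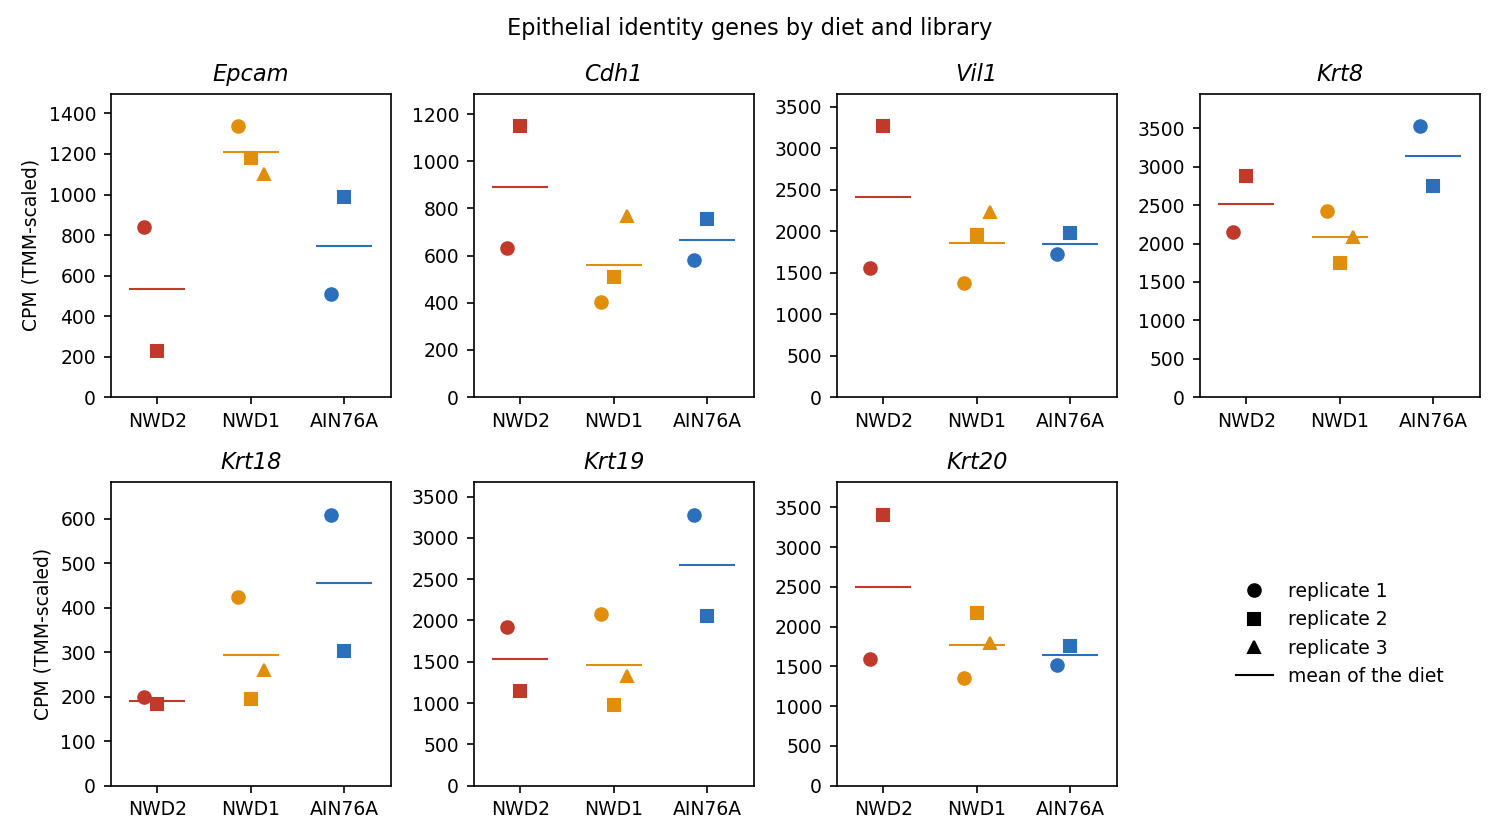
CPM of the 7 genes in the 7 libraries, on axes from 0, with 1 panel for each gene. Points are single libraries, with NWD2, NWD1 and AIN76A from left to right, and lines are the diet means. Epcam spans 225 to 1338 CPM with the 3 NWD1 libraries on top, while Krt8 stays between 1743 and 3530 CPM.

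Cdh1 ran the other way from Epcam in the library that set Epcam apart. It had 630 and 1149 CPM in NWD2, 405, 508 and 767 CPM in NWD1, against 581 and 756 CPM in AIN76A. NWD2 replicate 2 was the highest of the 7 libraries, and the 3 diets overlapped. The log2 fold change of NWD2 against NWD1 was 0.67 ± 0.38 (SE), with a 95% interval of -0.18 to 1.51 (edgeR adjusted p = 0.706), and without NWD2 replicate 2 it was 0.18. Against AIN76A it was 0.41 ± 0.41 (edgeR adjusted p = 0.996), and -0.08 without NWD2 replicate 2. NWD1 against AIN76A gave -0.26 ± 0.38 (edgeR adjusted p = 0.92). The 2 adhesion genes were the least alike pair among the 7: the root mean square difference of their mean-centred log2 CPM was 1.21 over the 7 libraries, against 0.203 between Cdh1 and Vil1. That distance includes NWD2 replicate 2, where Epcam was at -1.78 and Cdh1 at 0.82. Since this Epcam value chose the gene, the distance is a description.

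Krt8, the type II chain, had the narrowest range of the 7 genes over all 7 libraries. It had 2153 and 2878 CPM in NWD2, 2430, 1743 and 2079 CPM in NWD1, against 3530 and 2754 CPM in AIN76A, a ratio of 2.03 between the highest and the lowest library. All 3 NWD1 libraries were below both AIN76A libraries, as for 8.61% of genes tested, while 11.4% were above both. The log2 fold change of NWD1 against AIN76A was -0.59 ± 0.31 (SE), with a 95% interval of -1.29 to 0.11, and did not pass (edgeR adjusted p = 0.878). Its other contrasts were -0.32 ± 0.34 for NWD2 against AIN76A and 0.27 ± 0.31 for NWD2 against NWD1 (edgeR adjusted p = 0.996 and 0.816). Krt8 counts carry an uncertainty that the other members largely lack. Of the 1909 distinct stretches of 50 bases in its annotated transcripts, 29.7% also occur in other genes, mostly the pseudogene Krt8-ps. For Krt18 the share was 0.72%, and for the remaining 5 genes it was 0%.

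Krt18 was low in both NWD2 libraries. It had 199 and 184 CPM in NWD2, against 424, 195 and 260 CPM in NWD1 and against 610 and 302.5 CPM in AIN76A. The NWD2 values lay below both AIN76A values, as they did for 13.2% of all genes tested (with as many, 13.2%, above both), and overlapped those of NWD1 only through NWD1 replicate 2. The means were 191 ± 10.3 CPM in NWD2 and 456 ± 217 CPM in AIN76A (SD, n = 2 each). This log2 fold change was -1.25 ± 0.44 (SE), with a 95% interval of -2.24 to -0.27. Its unadjusted p of 0.0195 became an adjusted p of 0.996 by edgeR over all genes tested. It was -1.36 without NWD2 replicate 1 and -1.20 without NWD2 replicate 2, against -0.66 without AIN76A replicate 1 and -1.66 without AIN76A replicate 2, so leaving out a control library moved it most. NWD2 against NWD1 gave -0.62 ± 0.40 (edgeR adjusted p = 0.737), and NWD1 against AIN76A -0.64 ± 0.40 (edgeR adjusted p = 0.878), which was -0.05 without AIN76A replicate 1 and -1.06 without AIN76A replicate 2.

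Markers of tuft and enteroendocrine cells were also lower in NWD2. NWD1 replicate 2, where Krt18 was as low as in NWD2, had the lowest tuft sum and the highest enteroendocrine sum of the NWD1 libraries (173 and 2079 CPM). The tuft sum ordered the libraries within NWD1 and within AIN76A as Krt18 did, but not the 2 NWD2 libraries. All 14 tuft cell genes listed had lower fitted levels in NWD2 than in either other diet, with a median log2 fold change of -1.59 against AIN76A, beside -0.03 over all genes tested, and with the i5 term 13 of 14 were lower than in AIN76A (median -1.25). Their summed level was 94.9 and 124 CPM in NWD2, 173 to 502 CPM in NWD1, against 229 and 409 CPM in AIN76A. The 20 enteroendocrine genes, of the hormone cells, were also all lower in NWD2, and summed to 490 and 682 CPM there, against 1793 to 2079 CPM in NWD1 and against 1876 and 2361 CPM in AIN76A. No gene of either list passed the adjusted test, and the part of these cells in the Krt18 values was not tested.

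Krt19 followed Krt18 more than it followed Krt20. It had 1921 and 1145 CPM in NWD2, 2074, 982.5 and 1326 CPM in NWD1, against 3282 and 2059 CPM in AIN76A. Both NWD2 libraries were below both AIN76A libraries, as for 13.2% of genes tested, while NWD1 spanned the range of NWD2. The log2 fold change of NWD1 against AIN76A was -0.87 ± 0.41 (SE), with a 95% interval of -1.80 to 0.05, unadjusted p of 0.0593 and edgeR adjusted p of 0.878. It was -0.50 without AIN76A replicate 1. NWD2 against AIN76A gave -0.80 ± 0.45 (edgeR adjusted p = 0.996), ranging from -1.27 without NWD2 replicate 1 to -0.43 without AIN76A replicate 1. NWD2 against NWD1 gave 0.07 ± 0.41, with a 95% interval of -0.86 to 0.99 (edgeR adjusted p = 0.961), and -0.13 with scaling to library size alone.

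Krt20, the type I chain of differentiated cells, was highest in NWD2 replicate 2. It had 1598 and 3409 CPM in NWD2, 1353, 2174 and 1788 CPM in NWD1, against 1520 and 1759 CPM in AIN76A. The single high library lay above every other, and NWD2 replicate 1 fell among the NWD1 and AIN76A libraries. Its log2 fold change was 0.61 ± 0.42 (SE) for NWD2 against AIN76A and 0.50 ± 0.38 for NWD2 against NWD1 (edgeR adjusted p = 0.996 and 0.761). Without NWD2 replicate 2 these were -0.03 and -0.14. NWD1 against AIN76A gave 0.11 ± 0.38 (edgeR adjusted p = 0.962).

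As the 3 type I chains share Krt8 as a partner, their shares were set side by side in TPM. Krt20 made up 41.3% and 70.3% of the type I sum in NWD2, 33.1%, 62.8% and 50.7% in NWD1, and 26.3% and 40.8% in AIN76A. Krt19 made up 51.6% and 24.5% in NWD2, 52.7%, 29.5% and 39.1% in NWD1, and 59.1% and 49.6% in AIN76A. The 3 libraries with the largest Krt20 share had the smallest Krt19 share. Shares of a sum are tied to each other, but the TPM values had the same order. NWD2 replicate 2 and NWD1 replicates 2 and 3 had the highest Krt20 (2879, 2333 and 2046 TPM) and the lowest Krt19 (1005, 1095 and 1577 TPM). Krt18 was the smallest share throughout, at 7.07% and 5.22% in NWD2, 14.3%, 7.76% and 10.2% in NWD1, and 14.6% and 9.65% in AIN76A. The sum of the 3 type I chains moved much less, at 1.68 and 1.58 times Krt8 in NWD2, 1.58, 1.86 and 1.59 times in NWD1, and 1.53 and 1.47 times in AIN76A. The make-up of the type I pool thus differed widely between libraries of the same diet, with Krt20 as the main chain in NWD2 replicate 2 and in NWD1 replicates 2 and 3, and Krt19 in the other 4.

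**Figure D2:**
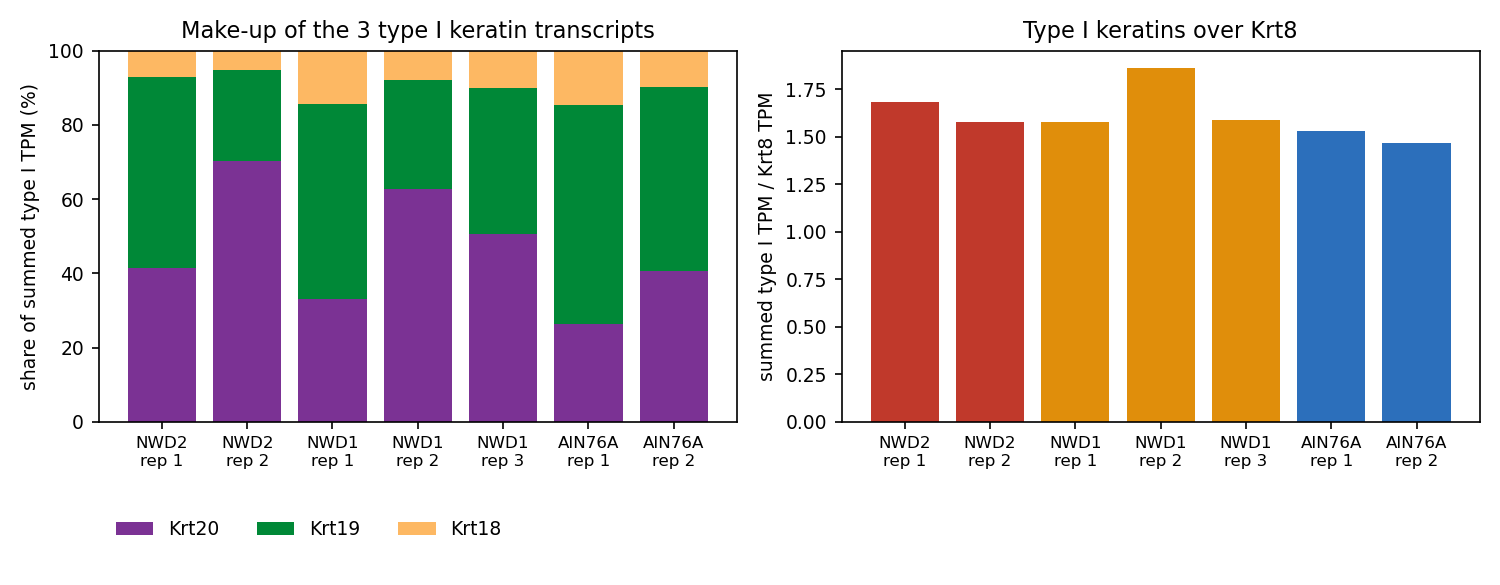
Share of Krt18, Krt19 and Krt20 in the summed TPM of these type I keratins in each library (stacked bars, percent), beside the ratio of that sum to Krt8 TPM (bars). Krt20 ranges from 26.3% in AIN76A replicate 1 to 70.3% in NWD2 replicate 2, while the ratio to Krt8 stays between 1.47 and 1.86.

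Vil1 had 1560 and 3270 CPM in NWD2, 1378, 1961 and 2228 CPM in NWD1, against 1725 and 1976 CPM in AIN76A. As with Krt20, NWD2 replicate 2 was above all other libraries and the diets overlapped. Its log2 fold change was 0.38 ± 0.42 (SE) for NWD2 against AIN76A and 0.38 ± 0.38 for NWD2 against NWD1 (edgeR adjusted p = 0.996 and 0.796), and -0.24 in both without NWD2 replicate 2. NWD1 against AIN76A gave 0.00 ± 0.38, with a 95% interval of -0.85 to 0.86 (edgeR adjusted p = 0.998). In TPM, Vil1 was 1.07 and 8.33 times Epcam in NWD2, 0.592, 0.953 and 1.16 times in NWD1, and 1.94 and 1.15 times in AIN76A.

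**Figure D3:**
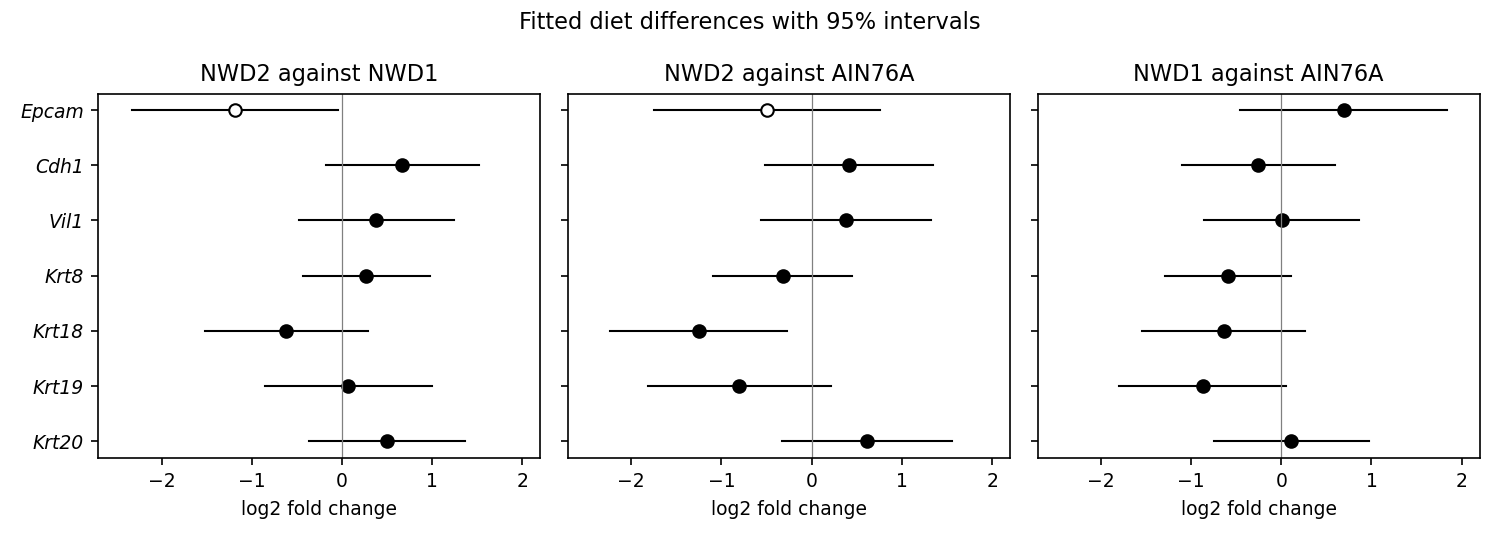
Fitted log2 fold changes of the 7 genes in the 3 comparisons, with 95% intervals from the edgeR fit of 7 libraries. The line at 0 marks equal levels, and open circles mark Epcam with NWD2, which was not tested. The intervals at open circles include the value that chose Epcam, so their position beside 0 is not a test. The interval of Krt18 for NWD2 against AIN76A (-2.24 to -0.27) lies below 0, and none of the tested values passed the adjusted test.

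Set against the other 6 libraries, NWD2 replicate 2 lay outside their range in 4 of the 6 genes listed beside Epcam, and in Epcam, which it chose. Its Epcam was 0.216 times their median and its Krt18 0.654 times, both below all of them. Its Cdh1 was 1.90 times, its Krt20 2.03 times and its Vil1 1.77 times that median, all above all of them. Krt8 and Krt19, at 1.26 and 0.576 times, lay within the range of the others. Over the genome the library was also often at an extreme, being the lowest of the 7 for 22.3% of genes tested and the highest for 23.1%. Other libraries were the lowest for 6.62% (AIN76A replicate 2) to 18.3% (NWD1 replicate 3) of genes tested. They were the highest for 6.13% (AIN76A replicate 2) to 21.6% (AIN76A replicate 1). Since the Epcam value of NWD2 replicate 2 chose the gene, that value says nothing of how unusual Epcam is. Over the other 6 libraries Epcam ran from 510.0 to 1338 CPM, Krt18 from 195 to 610 CPM and Krt19 from 982.5 to 3282 CPM.

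The absorptive enterocyte genes listed summed to 73030 and 152900 CPM in NWD2, 62600 to 102200 CPM in NWD1, against 75090 and 74760 CPM in AIN76A, and were highest in NWD2 replicate 2. Lct, the lactase of the villus, had 777 and 3384 CPM in NWD2, 453, 1160 and 833 CPM in NWD1, against 497.5 and 1007 CPM in AIN76A. Genes of crypt base stem cells summed to 1326 and 589 CPM in NWD2, 429 to 1032 CPM in NWD1, against 460.1 and 962 CPM in AIN76A. Their part in the Krt20, Vil1 and Epcam values was not tested.

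On the TPM scale the order of the 7 genes by the median over libraries was Krt8 (2594), Krt19 (1973), Krt20 (1832), Vil1 (1117), Epcam (970), Krt18 (410) and Cdh1 (263). Each neighbouring pair had overlapping ranges. Krt8 was above Krt19, and Krt20 above Vil1, in all 7 libraries, while Krt19 was above Krt20 in 4. Vil1 was above Epcam, and Epcam above Krt18, in 5 libraries, and Krt18 was above Cdh1 in 6. Together the 7 genes took 0.908% and 0.978% of counts in NWD2, 0.923% to 1.03% in NWD1, and 1.118% and 1.104% in AIN76A.

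The genes nearest in pattern were found by the root mean square difference of mean-centred log2 CPM over the 7 libraries, among 9560 genes. Krt20 and Vil1 were 0.152 apart, Cdh1 lay 0.203 from Vil1 and 0.296 from Krt20, and Krt18 and Krt19 were 0.325 apart. Epcam was between 0.962 and 1.21 from every other member. Its distances, to these and to its nearest genes, include the NWD2 replicate 2 value that chose it and are descriptions. Nearest to Epcam were Srsf6, a splicing factor, at 0.036, Gpr180 at 0.079 and Hdac2, a histone deacetylase, at 0.093. Nearest to Krt18 were Reep5 (0.149), Cd24a (0.182) and Krt23 (0.191), another type I keratin. Krt19 was nearest to Lgals2 (0.143), Gnb2l1 (0.143) and Rps27a (0.154), of which the last named is a ribosomal protein gene. Krt8 was nearest to Gpr108 (0.08), Hdhd3 (0.085) and Ostc (0.09). For Cdh1 the nearest were Ints3 (0.092), Iqgap1 (0.096), a scaffold found at cell junctions, and Nrd1 (0.102). For Krt20 they were Fchsd2 (0.066), Glt28d2 (0.07) and Slc31a1 (0.074), a copper transporter. For Vil1 they were D6Wsu116e (0.06), Eftud1 (0.071) and Dnm1l (0.074), a mitochondrial fission gene.

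**Figure D4:**
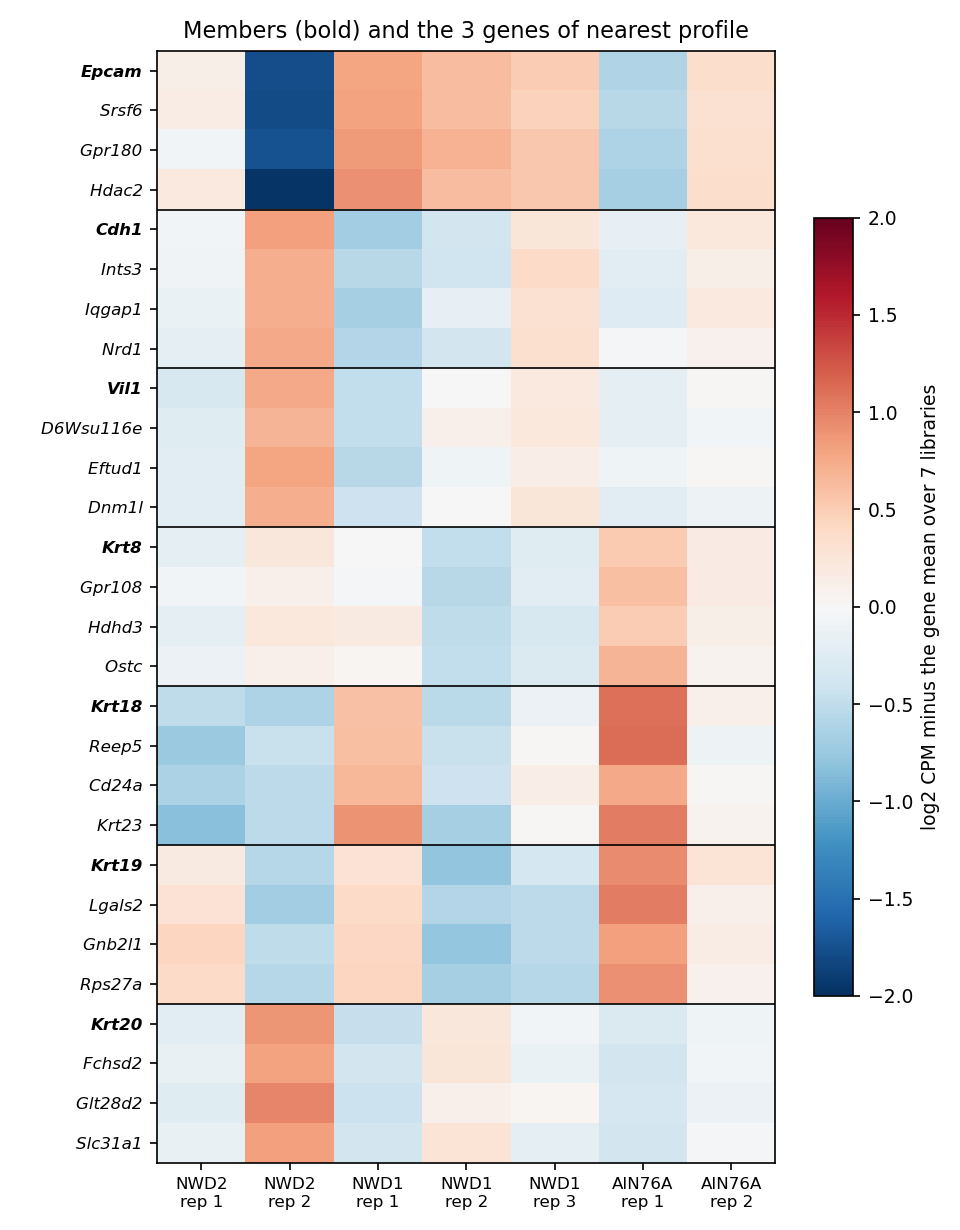
Log2 CPM minus each gene's mean over the 7 libraries (colour, red high and blue low, from -2 to 2), for the 7 genes (bold) and the 3 genes nearest in pattern to each; columns are NWD2, NWD1 and AIN76A libraries. Epcam and its neighbours are lowest in NWD2 replicate 2 (Epcam at -1.78), where Cdh1, Krt20 and Vil1 are highest (0.82, 0.88 and 0.75).

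Partners of the 7 genes were read from lists of known roles. Of the partners and proteases of Epcam listed, 7 were tested. Cldn7, the claudin that Epcam stabilises, had 1387 and 1127 CPM in NWD2, 1275, 1272 and 974 CPM in NWD1, against 1741 and 1197 CPM in AIN76A, so it did not share the low value of Epcam in NWD2 replicate 2. Spint2, which inhibits the protease matriptase, had 498 and 153 CPM in NWD2, 850.0, 591 and 630 CPM in NWD1, against 380 and 534 CPM in AIN76A. Like Epcam it was lowest in NWD2 replicate 2 and higher in all NWD1 libraries than in AIN76A. Taken singly, the first held for 22.3% of genes tested and the second for 11.4%. The low value in NWD2 replicate 2 chose Epcam, so this likeness is a description. St14, the gene of matriptase, had 409 and 503.6 CPM in NWD2, 245, 291 and 415 CPM in NWD1, against 311 and 339.5 CPM in AIN76A. In the list as a whole 2 of 7 genes were higher in NWD1 than in AIN76A (median -0.32), 1 of 7 in NWD2 than in AIN76A (median -0.24, with 4 of 7 without NWD2 replicate 2, 3 without AIN76A replicate 1, and 2 without AIN76A replicate 2 or with the i5 term) and 4 of 7 in NWD2 than in NWD1 (median 0.10).

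Of the 11 adherens junction genes, 10 were higher in NWD2 than in AIN76A (median log2 fold change 0.43), and 7 of 11 were so without NWD2 replicate 2 (median 0.05). Cdh17, the liver-intestine cadherin, had 1775 and 3418 CPM in NWD2, 1213, 1612 and 2081 CPM in NWD1, against 1512 and 1927 CPM in AIN76A, and was highest where Cdh1 was. Ctnnb1, encoding beta-catenin that binds the tail of E-cadherin, had 355 and 246 CPM in NWD2, 422, 491 and 614 CPM in NWD1, against 213 and 490.1 CPM in AIN76A, and unlike Cdh1 was not highest in NWD2 replicate 2. With the i5 index as a term the count was 7 of 11 (median 0.07). Of 7 desmosome genes, 4 were higher in NWD2 than in AIN76A (median 0.14). The count was 7 without AIN76A replicate 2, 3 without AIN76A replicate 1 or NWD2 replicate 2, and 2 with the i5 term (median -0.37).

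Of 14 other keratins, 5 passed the filter. None of the 5 was higher in NWD2 than in AIN76A (median -0.32), and 2 of 5 were so without NWD2 replicate 2 or with the i5 term (median -0.996 with that term). Krt7, a type II chain of simple epithelia, had 84.8 and 61.4 CPM in NWD2, 102, 98.1 and 104 CPM in NWD1, against 175 and 107 CPM in AIN76A. Krt23 had 6.76 and 8.38 CPM in NWD2, 22.5, 7.64 and 12.3 CPM in NWD1, against 24.6 and 12.6 CPM in AIN76A. Both were lower in both NWD2 libraries than in both AIN76A libraries, a pattern that 13.2% of all genes tested shared. The chains of stratified epithelia were nearly absent, with at most 2 counts of Krt5 and 6 of Krt14 in a library and none of Krt17.

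Brush border structure genes went with Vil1. Of the 18, 17 were higher in NWD2 than in AIN76A (median 0.38) and 16 of 18 than in NWD1 (median 0.40, beside 0.05 over all genes tested). Without NWD2 replicate 2 the counts were 10 and 8 of 18, with medians of 0.01 and -0.02, and with the i5 term 11 and 14 of 18, with medians of 0.10 and 0.24. Pls1, the fimbrin that bundles actin beside villin, had 1825 and 4465 CPM in NWD2, 1283, 2474 and 1840 CPM in NWD1, against 1663 and 2042 CPM in AIN76A. Cdhr5, a cadherin of the links between microvilli, had 2597 and 3851 CPM in NWD2, 1728, 2866 and 2315 CPM in NWD1, against 1809 and 2090 CPM in AIN76A. For NWD1 against AIN76A, 11 of 18 were higher (median 0.05). The villin family itself was mixed, with 3 of 7 higher in NWD2 than in AIN76A (median -0.09), 1 of 7 without NWD2 replicate 2 and 0 of 7 with the i5 term (median -0.91). Avil, a relative of Vil1 found in tuft cells, had 9.87 and 12.9 CPM in NWD2, 51.15, 22.7 and 37.45 CPM in NWD1, against 46.1 and 26.9 CPM in AIN76A.

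**Figure D5:**
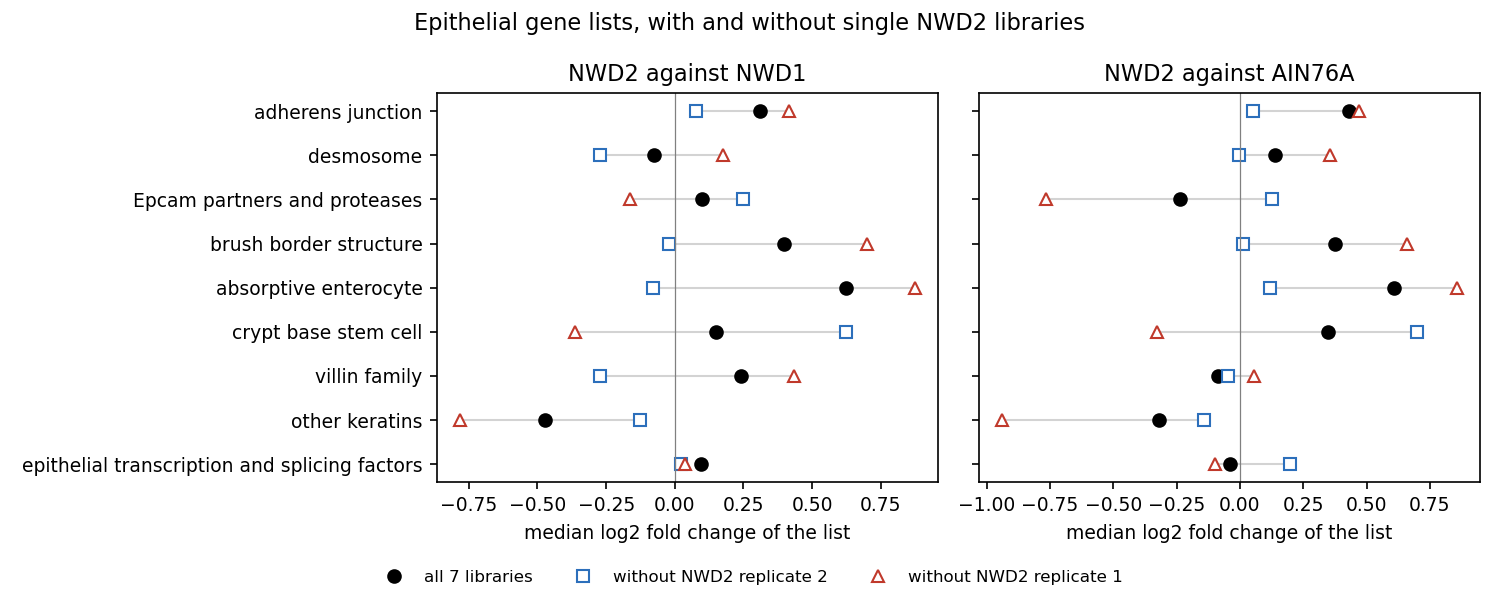
Median fitted log2 fold change of lists of epithelial genes in NWD2 against NWD1 (left) and NWD2 against AIN76A (right), with all 7 libraries (filled circles), without NWD2 replicate 2 (squares) and without NWD2 replicate 1 (triangles). The brush border median of 0.38 against AIN76A is 0.01 without NWD2 replicate 2, and the absorptive enterocyte median of 0.61 is 0.12.

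The genes that mark loss of epithelial identity were scarce in every library. Vim, the filament protein of mesenchymal cells and leukocytes, had 2.12 and 1.14 CPM in NWD2, 8.75, 7.54 and 4.45 CPM in NWD1, against 5.71 and 9.31 CPM in AIN76A. The list of Cdh1 repressors and mesenchymal genes summed to 2.57 and 1.46 CPM in NWD2, 5.64 to 9.37 CPM in NWD1, against 6.03 and 9.75 CPM in AIN76A. Vim made up most of the sum in each library, so the sum says little of the repressors. Zeb1 had 0.03 and 0.05 CPM in NWD2, 0.14, 1.11 and 0.46 CPM in NWD1, against 0.18 and 0.34 CPM in AIN76A. Snai2 had 0.25 and 0 CPM in NWD2, 0.21, 0.20 and 0 CPM in NWD1, against 0.09 and 0.02 CPM in AIN76A. Only 4 of the list's 9 genes passed the filter, and Cdh2, the mesenchymal cadherin, had 3 counts in NWD2 replicate 2 and none elsewhere. NWD2 replicate 2, the library whose low Epcam chose the set, had the highest Cdh1 and the lowest Vim. It was the highest of the 7 libraries for 23.1% of genes tested and the lowest for 22.3%. Of 24 transcription and splicing factors of epithelia, 11 were higher in NWD2 than in AIN76A (median -0.04), 17 were so without NWD2 replicate 2 or without AIN76A replicate 2, and 6 were so with the i5 term (median -0.15). The most abundant of them was Hnf4g, with 657 and 1629 CPM in NWD2, 742, 629 and 1010 CPM in NWD1, against 706 and 1016 CPM in AIN76A.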

How the data were processed

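The authors deposited whole-number read counts per Ensembl gene for 7 libraries, and TPM values for 6 of them. Per the labels' protocols, SMART-Seq v4 amplified the RNA and libraries were made with Nextera XT for paired-end reads, and neither kit keeps strand. Per the submitters' processing notes, STAR 2.4.2a, HTSeq 0.6.1, edgeR without a version and the build mm9 were used, with no roles given. The annotation, strand setting, filters and gene lengths are not given in the sources used here. In the TPM table, 1 column headed as NWD2 replicate 3 matches no sample title and was not used. TPM for all 7 libraries was therefore computed from the counts with the gene lengths that the deposited TPM imply. For 6489 of 6489 genes with at least 500 counts in the 6 libraries, counts and TPM were proportional within 1%.

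The test was edgeR 4.0.16's quasi-likelihood F test in R 4.3.3, two-sided, robust, scaled by TMM and filtered by filterByExpr on diet, in one fit of all 7 libraries with diet as the only term. It left 4 residual degrees of freedom, and the biological coefficient of variation was 0.363. The p-values were adjusted by Benjamini and Hochberg over the 14626 genes tested. SE and 95% intervals are those of the fit, and CPM are scaled by TMM. No p is given for Epcam with NWD2, whose level chose it. The genes nearest in pattern are the 3 with the smallest root mean square difference of mean-centred log2 CPM, at a prior count of 2, among genes averaging a log2 CPM of 1 or more, leaving out clone and predicted-gene names. The members and the gene lists were chosen with earlier results of these data known. Of the lists' symbols, 234 matched a deposited symbol and 7 a current Ensembl ID. Lists are described by counts and medians, with no test. RefSeq promoter windows are of GRCm38.p6 and were used for sequence alone, since the counts are of mm9. Shared 50-base stretches were counted in current mouse transcripts, not those of mm9.

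The alternatives tried were scaling by DESeq2 size factors or by library size, no filter, the DESeq2 1.42.0 Wald test, limma 3.58.1 on log2(TPM + 1) and log2(TPM + 0.1) of the 6 libraries with TPM, a replicate block, the i5 index as a term, and each library left out. Leaving out libraries or adding the i5 term for the gene lists was an addition made after seeing the data. A library that is alone in its diet is assumed to vary as the other diets do. No 2 libraries were identical. The script was tested on simulated data.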

Additional observations from a re-analysis of the deposited data

How the results depend on the processing

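No member tested passed an adjusted p of 0.05 under any alternative, and Epcam with NWD2 was again not tested. Of 315 recomputed member fold changes, those of Epcam with NWD2 included, 291 kept their direction. The smallest adjusted p, with Epcam in NWD2 left out, was 0.119 by edgeR (Krt18, NWD2 against AIN76A, no filter). In the order NWD1 against AIN76A, NWD2 against AIN76A and NWD2 against NWD1, genes called without a filter were 85, 190 and 384, and by the DESeq2 Wald test 1, 51 and 192, against 0 by edgeR. Limma on log2(TPM + 1) called 1 for NWD1 against AIN76A and 1 for NWD2 against NWD1, and on log2(TPM + 0.1) 2 for NWD1 against AIN76A. The i5 term gave 1 for NWD2 against AIN76A and 2 for NWD2 against NWD1. Leaving out 1 library gave 0 to 1 for NWD2 against NWD1, the 1 without NWD2 replicate 2. The replicate block gave 1 for NWD2 against AIN76A. Replicate numbers shared by diets were not taken as pairs in the main fit. Deviations of same-numbered libraries correlated over genes at 0.18, 0.06, 0.26, 0.00, 0.06 and 0.12, and of others between -0.26 and 0.17. In a diet with 2 libraries the deviations mirror each other, so these values cannot decide whether the numbers pair the libraries.

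Signs turned for fold changes of up to 0.61 in size, the largest being Krt20 in NWD2 against AIN76A, and the cause was not tested. Epcam there, -0.49, ranged from -1.77 to 0.17 with 1 library left out. Vil1 in NWD1 against AIN76A was -0.002 with DESeq2 size factors, -0.006 by DESeq2, -0.18 with the replicate block and -0.15 with the i5 term. Krt19 in NWD2 against NWD1 was -0.13 with library size and -0.15 on both TPM scales. With the i5 term, Cdh1 was -0.34 and Vil1 -0.032 in NWD2 against AIN76A. With 1 library left out the ranges were -0.15 to 0.18 for Vil1 and -0.06 to 0.27 for Krt20 in NWD1 against AIN76A. In NWD2 against AIN76A they were -0.08 to 0.74 for Cdh1, -0.033 to 1.01 for Krt20 and -0.24 to 0.78 for Vil1. In NWD2 against NWD1 they were -0.38 to 0.41 for Krt19, -0.14 to 0.91 for Krt20 and -0.24 to 0.78 for Vil1. Scaling to library size shifted the median of all genes by 0.11, -0.12 and -0.24 in the 3 comparisons. NWD1 replicate 3, with 14034315 counts, was the shallowest, and the effect of depth on these values was not tested.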

Other observations

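Lists of the remaining cell types gave the following summed levels. The 10 Paneth cell genes summed to 26390 and 23010 CPM in NWD2, 15530 to 26620 CPM in NWD1, against 42660 and 29090 CPM in AIN76A. Reg3g alone had 15030 and 1285 CPM in NWD2, 870, 749 and 6215 CPM in NWD1, against 2105 and 1632 CPM in AIN76A. Of the 10, 9 were lower in NWD2 than in AIN76A (median log2 fold change -1.06), and 9 in NWD1 than in AIN76A (median -0.66). Without AIN76A replicate 1 these were 7 (median -0.67) and 7 (median -0.19). The 12 goblet cell genes summed to 8232 and 10130 CPM in NWD2, 5709 to 8702 CPM in NWD1, against 19980 and 9342 CPM in AIN76A. Of the 12, 9 were lower in NWD2 than in AIN76A (median -0.89), and 11 in NWD1 than in AIN76A (median -0.72). Without AIN76A replicate 1 these were 9 (median -0.25) and 10 (median -0.195). Haemoglobin and other red cell genes were higher in NWD2 than in NWD1 in 5 of 5 tested and summed to between 15.8 and 17.5 CPM in NWD2, 3.68 and 7.01 CPM in NWD1, against 3.94 and 12.4 CPM in AIN76A. Stromal genes summed to between 3.57 and 5.94 CPM in NWD2, 2.88 and 4.32 CPM in NWD1, against 1.55 and 3.603 CPM in AIN76A, and endothelial and glial genes to at most 3.27 CPM in any library. No gene of these lists passed the adjusted test by edgeR in any comparison.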
